A study of Rattus norvegicus with 6 samples.

Results

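Voltage-gated calcium channels let calcium into neurons when the membrane depolarizes. Their genes were examined in sensory neurons of spontaneously hypertensive rats (SHRs) after ablation of the perirenal adipose tissue (PRATA). The genes described are 10 named subunit genes, taken by gene name from the 25689 genes of the deposited count table. They comprise 5 pore subunit genes (Cacna1a, Cacna1b, Cacna1c, Cacna1e and Cacna1h) and 5 auxiliary subunit genes (Cacna2d1, Cacna2d2, Cacna2d3, Cacnb3 and Cacnb4), and all 10 were present as single rows. All samples came from SHRs labelled wild type and aged 6 to 8 weeks, although the study's methods give an older age at purchase. PRATA removed the fat around both kidneys, and control rats had a sham operation. Dorsal root ganglia (DRGs) at L1-L2, which the study counts among the sensory ganglia that supply this fat, were taken 4 weeks later and their neurons were isolated by enzyme digestion and differential adhesion, with 3 samples per group. The labels do not say that each sample was a separate rat, so p-values measure the spread between these samples.

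A calcium channel is built around 1 large pore-forming subunit, which sets the channel type. In channels that open at high voltage, beta subunits bind the pore subunit inside the cell, and alpha2delta subunits are anchored outside. Both help to bring these channels to the membrane and tune their gating. In sensory neurons, calcium entry through these channels triggers release of transmitters and peptides such as CGRP, a vasodilator. The N-type channel is a main route for this release at nociceptor terminals, and alpha2delta-1 is the binding site of gabapentin.

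The libraries held between 5892967 counts in sham replicate 2 and 15226952 in sham replicate 1. The genes described here had at least 160 counts in every sample, far above a floor of 3 counts, which was at most 0.468 CPM (counts scaled to a common library size) and covers counting error only. Levels below are TMM-normalized CPM. The groups were compared with the two-sided quasi-likelihood test of edgeR over the 14919 genes that passed a filter on low counts, and adjusted p-values follow Benjamini and Hochberg over these genes. None of the 26 sensory neuron markers was at 0 in all samples, and they had summed levels of 12190 to 25210 CPM. Markers of satellite glia (3575 to 8922 CPM), Schwann cells (1122 to 2166 CPM) and fibroblasts (1210 to 3564 CPM) were present too, while macrophage markers summed to at most 186 CPM. Sham replicate 1 and PRATA replicate 3 stood apart from the other 4 libraries in the 7SL RNA gene Rn7sl1, which took 5.63% and 5.40% of their counts against at most 1.52% elsewhere.

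All 10 calcium channel genes had a higher mean level after PRATA than after the sham operation, by log2 fold changes between 0.36 for Cacna2d3 and about 1 for Cacna2d1. Over all genes tested, 52.0% had a log2 fold change above 0. The median was 0.63 over the 10 genes, 0.70 over the pore subunit genes and 0.57 over the auxiliary subunit genes, against 0.02 over all genes tested. In bulk samples, a different number of neurons and a different amount of RNA per neuron cannot be told apart. For 8 of the 10, all 5 pore genes and Cacna2d1, Cacna2d2 and Cacnb4, the lowest PRATA sample exceeded the highest sham sample, as it did for 11.6% of all genes. The same 8 genes had an unadjusted p under 0.05, which 8.19% of all genes reached in this direction and 10.1% in the other. After adjustment, edgeR called none of the 10 at 0.05, and 0 of the 14919 genes tested (0%). With DESeq2, 3 of the 10 passed the adjusted threshold (Cacna1b, Cacna1e and Cacna2d1) beside 728 genes in all, and with limma voom and sample quality weights 7 did (the 5 pore genes, Cacna2d1 and Cacnb4) beside 1173.

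**Figure D1:**
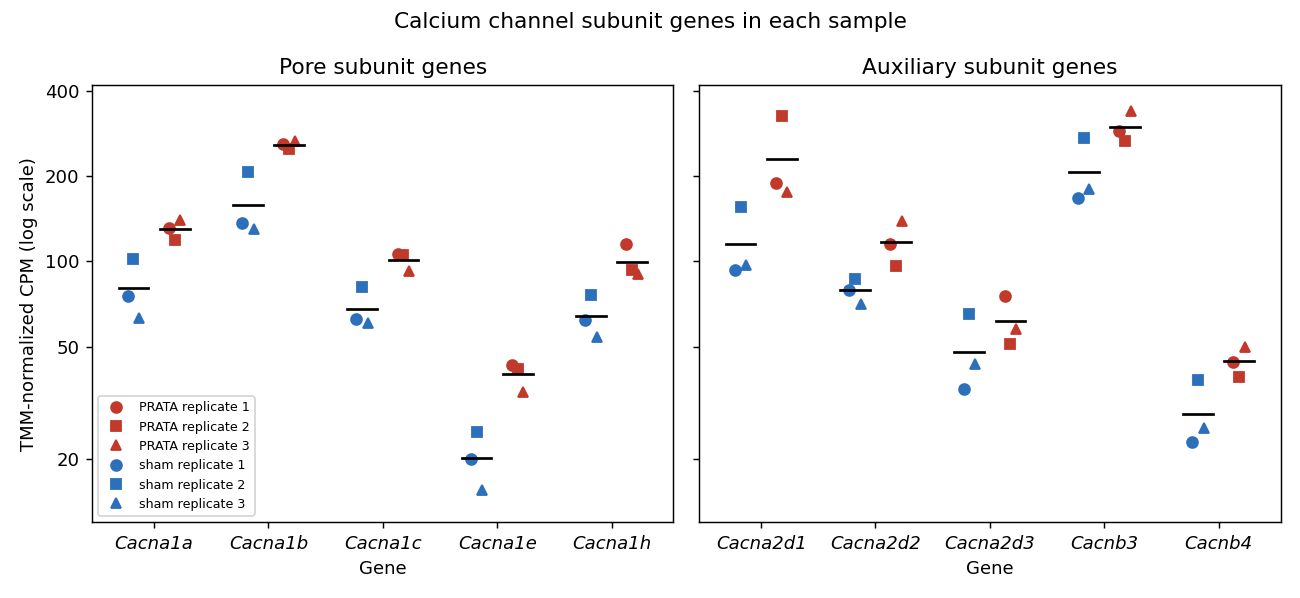
TMM-normalized CPM (log scale) of the 5 pore subunit genes and the 5 auxiliary subunit genes in each of the 3 PRATA (red) and 3 sham (blue) samples, with symbols for the replicate number and a black line at the group mean. The groups do not overlap for 8 genes, overlap for Cacna2d3 and Cacnb3, and sham replicate 2 is the highest sham sample for all 10.

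Cacna1e encodes the pore of the R-type channel. Its level was 43.2, 41.7 and 34.7 CPM in PRATA replicates 1 to 3 and 20.04, 25.0 and 15.6 CPM in sham replicates 1 to 3, and the groups did not overlap. Its log2 fold change of 0.99 (standard error 0.21, 95% confidence interval 0.49 to 1.48, edgeR adjusted p = 0.156) had the smallest p of the 10 genes, and 1.06% of all genes tested had a smaller one.

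Cacna1b encodes the pore of the N-type channel. It was measured at 259, 249 and 266 CPM in PRATA replicates 1 to 3 against 137, 206 and 130 CPM in the sham samples. The PRATA samples lay close together, whereas the sham samples spread widely around 158 ± 42.2 CPM (SD, n = 3). The log2 fold change was 0.71 (standard error 0.22, edgeR adjusted p = 0.182).

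The bases before the annotated starts of these 2 genes are shown because they are the pore genes with the smallest p and with the highest counts. Each line gives the 250 bases upstream of a RefSeq start in the GRCr8 assembly, 5′ to 3′ on the gene's strand. Capitals mark GC boxes (GGGCGG on either strand).
Cacna1b, chr3:27944286-27944535, minus strand: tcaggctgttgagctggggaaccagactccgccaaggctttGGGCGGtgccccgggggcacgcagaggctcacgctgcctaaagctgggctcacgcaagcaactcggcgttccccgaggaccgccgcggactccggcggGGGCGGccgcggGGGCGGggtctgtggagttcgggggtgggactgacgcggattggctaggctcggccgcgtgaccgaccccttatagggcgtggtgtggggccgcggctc
Cacna1e, chr13:69444811-69445060, minus strand: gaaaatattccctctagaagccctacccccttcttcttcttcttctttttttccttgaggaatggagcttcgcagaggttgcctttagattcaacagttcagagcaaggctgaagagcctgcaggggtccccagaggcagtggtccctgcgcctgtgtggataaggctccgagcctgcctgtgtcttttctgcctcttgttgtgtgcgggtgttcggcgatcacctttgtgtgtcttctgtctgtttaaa
The Cacna1b window was 72.0% G or C and held 3 GC boxes, while the Cacna1e window was 51.2% G or C and held none. RefSeq windows were matched for 8 of the 10 genes, without Cacna1h and Cacnb4. A GC box was found in the first listed window of 6 of them (Cacna1a, Cacna1b, Cacna2d1, Cacna2d2, Cacna2d3 and Cacnb3) and in 30.5% of all 33469 windows of this length. None of the 8 genes had a cAMP response element (TGACGTCA), a TATA box (TATAAA) or an E-box (CACGTG) there, on either strand, which 1.59%, 12.9% and 5.59% of all windows hold. These windows describe letters before a start. All 10 genes were higher in mean level after PRATA, so a split by GC box could show no difference in direction.

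Cacna1a, the P/Q-type pore, was at 131, 119 and 141 CPM in the PRATA samples and at 75.7, 102 and 63.1 CPM in the sham samples. The groups did not overlap, and the log2 fold change was 0.70 (standard error 0.21, edgeR adjusted p = 0.175). Cacna1c, the L-type pore found in many excitable cells, was at 106, 105 and 92.7 CPM after PRATA and at 62.7, 81.0 and 60.8 CPM in the sham samples. The log2 fold change of 0.57 (standard error 0.17, edgeR adjusted p = 0.181) was the smallest of the pore genes, and the groups again did not overlap.

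Cacna1h encodes a T-type pore, which opens at low voltage and is prominent in low-threshold touch receptors and some nociceptors. It was at 116, 93.4 and 90.2 CPM after PRATA and at 61.9, 76.0 and 54.0 CPM in sham replicates 1 to 3. Here PRATA replicate 1 was the high sample. Without it the log2 fold change went from 0.64 (standard error 0.19, edgeR adjusted p = 0.175) to 0.50 (standard error 0.22, edgeR adjusted p = 0.551). The unadjusted p of Cacna1h in edgeR went from 0.0096 to 0.0515. The rise in adjusted p was shared by other genes in this setting, as Cacna1a and Cacna1e both went to 0.550.

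Among the auxiliary genes, Cacna2d1 (alpha2delta-1) had the largest fold change and the widest spread after PRATA. It was at 190, 327 and 176 CPM in PRATA replicates 1 to 3 and at 93.0, 156 and 97.4 CPM in the sham samples. PRATA replicate 2 was far above the other PRATA samples, and the groups did not overlap. The log2 fold change was 1.004 (standard error 0.31, 95% confidence interval 0.30 to 1.71, edgeR adjusted p = 0.182). Without PRATA replicate 2 it was 0.67 (standard error 0.27, edgeR adjusted p = 0.313). Leaving out PRATA replicate 2 also raised the edgeR adjusted p of Cacna1e, from 0.156 to 0.291. In that library the summed markers of several other cell types were also higher than in PRATA replicates 1 and 3. Those of satellite glia summed to 6697 CPM against 4169 and 3575 CPM, and those of Schwann cells to 2166 CPM against 1804 and 1701 CPM. Macrophage markers summed to 186 CPM against 42.7 and 135 CPM, and markers of mural and smooth muscle cells to 272 CPM against 201.5 and 191 CPM. Those of fibroblasts, at 1612 CPM against 1210 and 3564 CPM, lay between PRATA replicates 1 and 3. So did those of endothelial cells, at 139 CPM against 79.3 and 160 CPM. Markers of skeletal muscle (11.3 CPM against 26.6 and 28.15 CPM) and adipocytes (41.0 CPM against 44.3 and 63.1 CPM) were lowest in that library. The part of these cell types in the Cacna2d1 value was not tested.

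The 2 other alpha2delta genes differed less between the groups. Cacna2d2, which encodes alpha2delta-2 and also binds gabapentin, was at 115, 96.5 and 139 CPM after PRATA and at 79.1, 86.8 and 71.0 CPM in the sham samples, without overlap. Its log2 fold change was 0.57 (standard error 0.19, edgeR adjusted p = 0.196). Cacna2d3, for alpha2delta-3, was at 75.8, 50.9 and 57.7 CPM after PRATA and at 35.5, 65.2 and 43.5 CPM after the sham operation. Its groups overlapped, since sham replicate 2 exceeded PRATA replicates 2 and 3, and the 95% confidence interval of its log2 fold change of 0.36 ran from -0.25 to 0.96 (edgeR adjusted p = 0.488).

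Of the beta subunit genes, Cacnb3 was at 290, 266 and 341 CPM after PRATA and at 167, 273 and 181 CPM after the sham operation. The groups overlapped by sham replicate 2 alone, and the log2 fold change was 0.53 (standard error 0.24, edgeR adjusted p = 0.282). Cacnb4 was at 44.0, 39.2 and 49.98 CPM after PRATA and at 23.1, 38.1 and 25.9 CPM in the sham samples, with its groups just apart. The log2 fold change was 0.62 (standard error 0.23, edgeR adjusted p = 0.224).

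**Figure D2:**
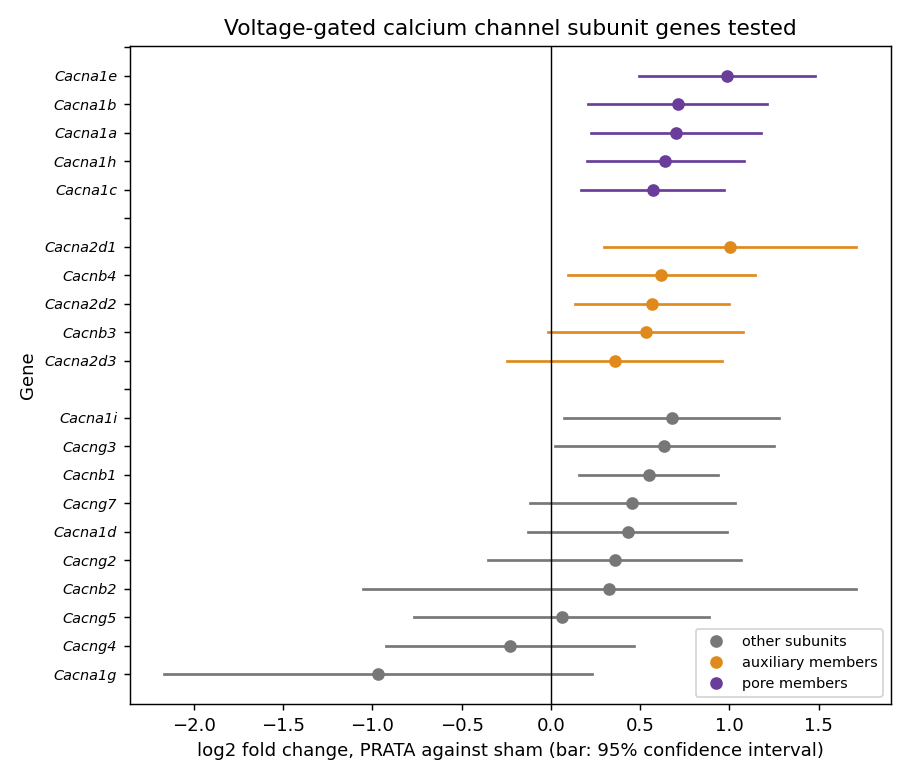
Log2 fold change of PRATA against sham (point) with its 95% confidence interval (bar) from edgeR for the 5 pore genes, the 5 auxiliary genes and 10 other tested genes named as calcium channel subunits. The 10 genes described lie between 0.36 and about 1, with intervals that include 0 for Cacna2d3 and Cacnb3, while the 10 others range from -0.97 for Cacna1g to 0.68 for Cacna1i.

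Sham replicate 2 was the highest sham sample for each of the 10 genes. This was not particular to them, since over all genes tested this library clustered with the 3 PRATA libraries, apart from sham replicates 1 and 3. Without sham replicate 2, all 10 genes had an unadjusted p under 0.05, as had 13.4% of all genes in this direction. At an adjusted p of 0.05, edgeR then called 5 of the 10 (Cacna1a, Cacna1b, Cacna1c, Cacna1e and Cacnb4), with adjusted p between 0.0340 and 0.0487. It called 721 genes in all, and 1.05% of the genes tested were called as higher after PRATA. Without both PRATA replicate 3 and sham replicate 1, the libraries rich in Rn7sl1, the log2 fold changes lay between 0.22 and 1.07 and 4 genes kept an unadjusted p under 0.05 (Cacna1c, Cacna1e, Cacna1h and Cacna2d1), against 5.98% of all genes in this direction.

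No subunit's share of the pore or auxiliary counts separated the groups. Summed over the 5 pore genes, levels were 655, 609 and 625 CPM in PRATA replicates 1 to 3 and 357, 490 and 324 CPM in sham replicates 1 to 3. Cacna1b took 41.0% ± 1.55 (SD, n = 3) of the pore counts after PRATA and 40.2% ± 1.86 (SD, n = 3) after the sham operation. Cacna1a took 20.7% and 20.5%, Cacna1c 16.1% and 17.6%, and Cacna1h 15.8% and 16.5%. Cacna1e took 6.34% ± 0.689 (SD, n = 3) after PRATA and 5.17% ± 0.401 (SD, n = 3) after the sham operation, and its shares overlapped (exact permutation test, two-sided, p = 0.20). With 3 samples against 3 the smallest p this test can give is 0.10. These are shares of counts, not of molecules, since longer transcripts give more counts; levels are compared within a gene and not between genes.

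The auxiliary genes summed to 715, 780 and 763 CPM after PRATA and to 398, 619 and 419 CPM after the sham operation. Cacna2d1 held 41.9% of these counts in PRATA replicate 2 and between 23.0% and 26.5% in the other 5 samples. Cacnb3 held 39.8% ± 5.29 (SD, n = 3) and 43.1% ± 1.09 (SD, n = 3). Counts of auxiliary over pore genes stood at a ratio of 1.199 ± 0.0973 (SD, n = 3) after PRATA and 1.22 ± 0.0966 (SD, n = 3) after the sham operation.

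Markers of sensory neurons moved with the calcium channel genes. Of the 26 markers, 25 had a log2 fold change above 0, with a median of 0.51, while 11 of 12 satellite glia markers were below 0, with a median of -0.47. Schwann cell markers were above 0 for 10 of 12, with a median of 0.72, and their summed levels did not overlap (1701 to 2166 CPM after PRATA, 1122 to 1457 CPM after the sham operation). Their mean log2(CPM + 1) did overlap, at 5.34, 6.01 and 5.14 in the PRATA samples and 5.39, 4.89 and 4.78 in the sham samples. The sums include Ngfr, named after its values were seen, at 825, 585.5 and 802.5 CPM against 403, 523 and 393 CPM. Without Ngfr the sums would overlap, as sham replicate 1 would then lie above PRATA replicates 1 and 3. Of the tested markers, 9 of 11 were above 0 for macrophages, 9 of 11 for endothelial cells, 7 of 10 for mural and smooth muscle cells, 2 of 11 for fibroblasts, 2 of 3 for skeletal muscle and 2 of 5 for adipocytes, and the summed levels of each of these lists overlapped. The part of these cell types in the channel gene values was not tested beyond the neuron markers. The mean log2(CPM + 1) of the neuron markers was 8.69, 8.38 and 8.70 in PRATA replicates 1 to 3 and 7.86, 8.39 and 8.06 in sham replicates 1 to 3, so that its groups overlapped by sham replicate 2. PRATA replicate 2 and sham replicate 2 had nearly equal neuron marker levels (8.38 and 8.39). Between these 2 libraries, the PRATA library had the higher summed level for the pore genes (609 against 490 CPM) and the auxiliary genes (780 against 619 CPM). This sets 1 library against 1, and the share of all genes higher in this pair was not worked out. The auxiliary difference rested on Cacna2d1, as the 4 other auxiliary genes summed to 453 CPM in PRATA replicate 2 and 463 CPM in sham replicate 2.

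**Figure D3:**
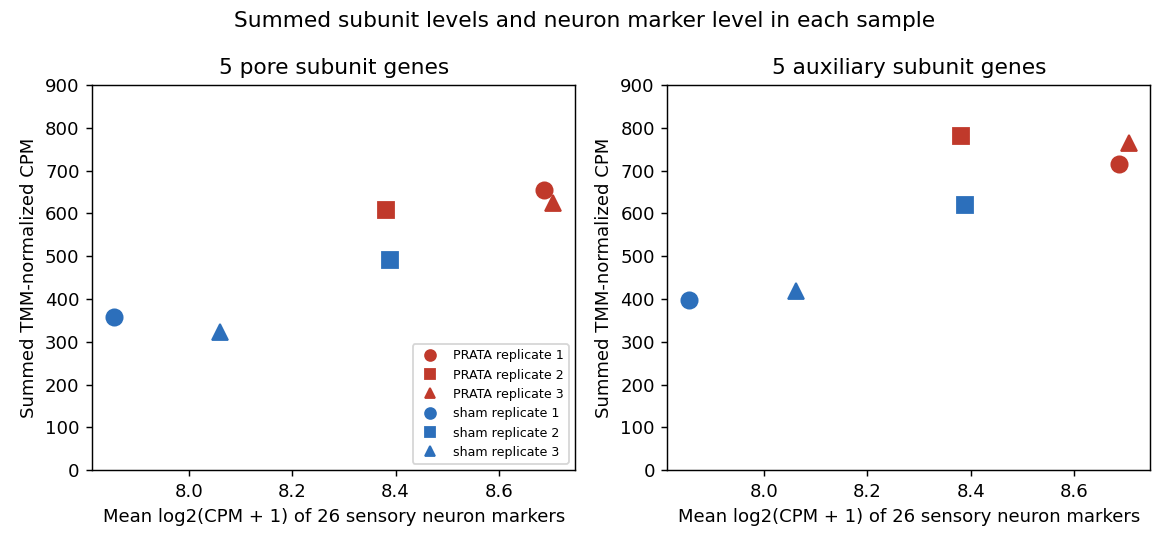
Summed TMM-normalized CPM of the 5 pore genes and of the 5 auxiliary genes against the mean log2(CPM + 1) of 26 sensory neuron markers, with 1 point per sample. Sham replicate 2 and PRATA replicate 2 share a marker level of about 8.4, where their summed pore levels are 490 and 609 CPM, with 1 library per group.

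Levels were also set relative to the neuron markers, by subtracting each sample's marker mean from log2(CPM + 1). By construction this lowers the difference between the group means of every gene by the same 0.49, and the median over the 10 genes went from 0.63 to 0.14. The difference was then 0.49 for Cacna2d1, 0.48 for Cacna1e, 0.25 for Cacna1b, 0.23 for Cacna1a and 0.15 for Cacna1h. It was 0.13 for Cacnb4, 0.08 for Cacna1c, 0.07 for Cacnb3, 0.06 for Cacna2d2 and -0.11 for Cacna2d3. On this scale the groups did not overlap for 1 of the 10 genes, and for 0.845% of all genes in this direction. This gene was Cacna1b, with -0.67, -0.41 and -0.64 in PRATA replicates 1 to 3 and -0.75, -0.69 and -1.03 in the sham samples (exact permutation test, two-sided, p = 0.10). For Cacna1e the values were -3.22, -2.96 and -3.55 after PRATA and -3.46, -3.69 and -4.01 after the sham operation, and PRATA replicate 3 lay below sham replicate 1. For Cacna2d1 they were -1.11, -0.02 and -1.24 after PRATA and -1.30, -1.10 and -1.44 after the sham operation, and the groups overlapped. PRATA replicate 2 was the high sample, and over the alternatives on this scale the Cacna2d1 difference ranged from 0.10 to 0.71. Leaving out single libraries gave 1 to 4 separated genes. There were 3 without sham replicate 2 (1.54% of all genes) and 4 without sham replicate 1 (3.91% of all genes). Without PRATA replicate 1 there were also 3, and the share of all genes was not worked out in that setting.

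**Figure D4:**
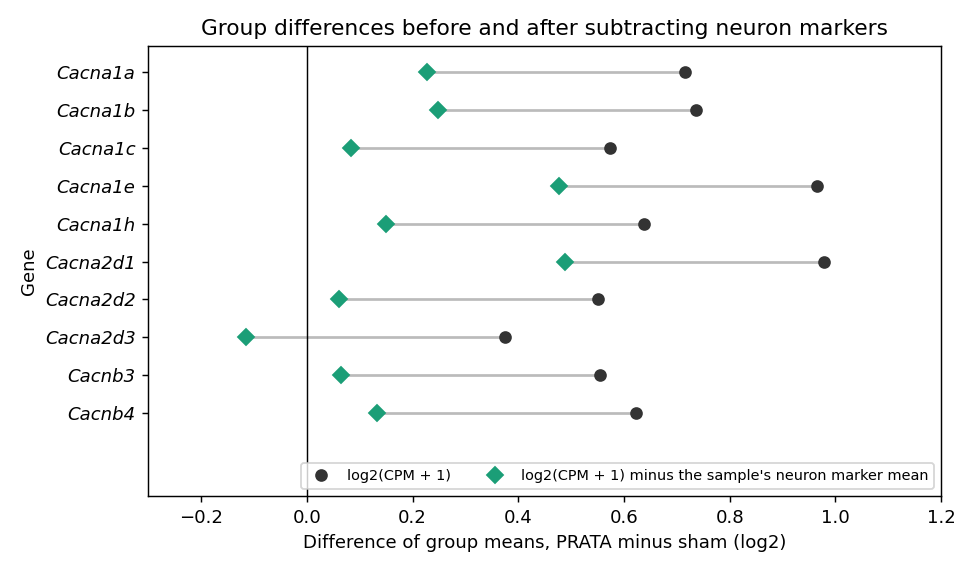
Difference of group means, PRATA minus sham, on the log2 scale for each of the 10 genes, as log2(CPM + 1) (circles) and after subtracting each sample's mean over 26 sensory neuron markers (diamonds). The circles lie between 0.37 and 0.98 and the diamonds between -0.11 and 0.49, each gene shifted by the same amount.

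When the neuron marker mean entered edgeR's fit as a covariate, a setting chosen after the data were seen, 1 of the 10 genes had an unadjusted p under 0.05 and was higher, a share near the 7.14% of all genes. This was Cacna1e, with a log2 fold change of 0.81 (standard error 0.32, edgeR adjusted p = 0.391). That of Cacna2d1 was 0.95 (standard error 0.45, edgeR adjusted p = 0.470) and those of Cacna1a and Cacna1b were 0.31 and 0.30, whereas Cacnb3 (-0.03) and Cacna2d3 (-0.35) changed sign.

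Beyond these 10 genes, 16 further subunit genes were listed, and 6 did not pass the filter on low counts. These 6 were Cacna1s of skeletal muscle, Cacna1f of the retina, Cacna2d4, Cacng1, Cacng6 and Cacng8, none above 2.34 CPM in any sample. Of the 10 tested, 8 were higher in mean level after PRATA and 3 of them had an unadjusted p under 0.05 (8.19% of all genes in this direction), and the median over the 10 was 0.39 on the log2 scale. The list went by gene name and includes the Cacng family, so its counts do not all describe parts of calcium channels. Cacnb1, another beta subunit gene, was at 64.0, 67.3 and 60.2 CPM in PRATA replicates 1 to 3 and at 37.3, 49.2 and 44.8 CPM in the sham samples (log2 fold change 0.55, standard error 0.17, edgeR adjusted p = 0.185). Cacna1i, a T-type pore gene, was at 24.0, 14.6 and 16.0 CPM against 10.8, 13.9 and 9.45 CPM, without overlap (log2 fold change 0.68, edgeR adjusted p = 0.236). Cacng3, whose product escorts AMPA receptors rather than calcium channels, was at 22.3, 13.4 and 21.4 CPM against 13.1, 14.2 and 9.45 CPM, with overlap (log2 fold change 0.64, edgeR adjusted p = 0.260). The 2 genes of this list with a lower mean, named after their values were seen, were Cacna1g, a T-type pore gene (log2 fold change -0.97, edgeR adjusted p = 0.352), and Cacng4 (-0.23, adjusted p = 0.715).

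Genes whose products work with the channels were also mostly higher in mean level. Proteins that bind or regulate the channels gave 29 tested rows from 28 genes, since Calm2 has 2 rows. Of these, 24 were above 0, the median was 0.46 on the log2 scale, and 7 had an unadjusted p under 0.05, all of them higher, against 8.19% of all genes. Stx1a encodes a syntaxin of the vesicle fusion machinery that binds presynaptic calcium channels. It was at 44.3, 47.0 and 50.1 CPM after PRATA and at 23.8, 33.2 and 27.9 CPM after the sham operation (log2 fold change 0.74, edgeR adjusted p = 0.158). Rims2, an active zone scaffold gene that tethers these channels, was at 82.1, 70.4 and 83.4 CPM against 50.8, 66.5 and 47.6 CPM (log2 fold change 0.52, edgeR adjusted p = 0.218). For both genes the groups did not overlap.

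Genes that store, pump or buffer calcium had a median of 0.28 on the log2 scale, with 23 of 29 above 0. At an unadjusted p under 0.05, 3 of the 29 were higher, a share near the 8.19% of all genes. These 3 were Atp2a3, a calcium pump of the endoplasmic reticulum (log2 fold change 0.86, edgeR adjusted p = 0.169), Orai2, a store-operated channel (0.60, adjusted p = 0.194), and Ryr2, a ryanodine receptor that releases stored calcium (0.65, adjusted p = 0.227). Ryr2 overlapped between the groups, while Atp2a3 and Orai2 did not. Calcium-dependent effectors had a median of 0.33, with 22 of 28 above 0, 4 at an unadjusted p under 0.05 upward and 1 downward, against 8.19% and 10.1% of all genes. Kcnmb4, a subunit of the calcium-activated BK potassium channel, was at 9.42, 10.4 and 10.1 CPM after PRATA and 6.43, 6.71 and 6.33 CPM after the sham operation (log2 fold change 0.62, edgeR adjusted p = 0.206). The log2 fold change of Prkcb, a protein kinase C gene, was 0.44 (edgeR adjusted p = 0.245). The downward gene was Camk2d, a calmodulin-dependent kinase gene, at 112, 136 and 110.5 CPM against 176, 135 and 203 CPM (log2 fold change -0.52, edgeR adjusted p = 0.233), and it overlapped. No gene of these lists had an adjusted p under 0.05 in edgeR.

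The genes most like the channel genes across the 6 samples were sought among 9240 others with a mean of at least 10 CPM, by the root mean square difference of log2 levels centred on each gene's mean. For the average of the pore genes these were Erc2 (0.05), Gnaz (0.05) and Kit (0.06). For the average of the auxiliary genes they were Mdga1 (0.04), Fam131b (0.05) and Cyfip2 (0.05). Erc2 was at 49.2, 43.2 and 43.5 CPM after PRATA and at 23.6, 32.5 and 21.7 CPM after the sham operation. It was picked for its likeness over the 6 samples, so its raised level in sham replicate 2 follows from the choice.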

How the data were processed

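RNA of isolated L1-L2 DRG neurons was sequenced from 3 PRATA and 3 sham SHR samples with stranded, ribosomal RNA-depleted libraries. The deposited table holds raw counts of reads per gene, made by the authors, without normalization. The submitters' processing notes list STAR 2.7.3a, RSEM and DESeq2, whereas the methods describe HISAT2, StringTie and Cuffdiff; the counting tool, strand setting and genome build are not given in the sources used here. The analysis used R 4.3.3, edgeR 4.0.16 (filterByExpr, minimum count 10, minimum total 15, TMM, quasi-likelihood test, Benjamini-Hochberg adjustment over 14919 genes), limma 3.58.1 and DESeq2 1.42.0, after tests on simulated data. Standard errors were derived from the F statistic. Figures used Python 3.11.15 and matplotlib 3.10.9. Total counts of 5892967 to 15226952 set the precision.

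The channel genes, gene lists and marker lists were chosen with earlier results of these data known. All 10 channel genes are named, up to 3 genes with the smallest p of each of the 4 further lists, and 3 genes most like the pore and auxiliary averages; genes outside this rule are marked, and 1 gene within it is not reported here. Of 104 listed genes of those 4 lists, Calm3 and Atp2a1 were not matched, and 7 did not pass the filter (Stac3 and 6 subunit genes). Promoter windows are RefSeq (GRCr8), which is used for sequence only.

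Alternatives were DESeq2's size factors, library size alone, other filters on low counts, DESeq2, limma-trend with a pseudocount of 1, robust quasi-likelihood, limma voom with quality weights, each sample left out, the replicate number as a block, PRATA replicate 3 and sham replicate 1 left out together, protein-coding genes alone and, added after seeing the data, the neuron marker covariate. The labels number both groups 1 to 3 without saying that equal numbers belong together.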

Additional observations from a re-analysis of the deposited data

How the results depend on the processing

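The 10 channel genes kept a log2 fold change above 0 in 178 of 180 values over 18 alternatives. The exceptions were Cacna2d3 (-0.35) and Cacnb3 (-0.0263) with the neuron marker covariate, and the cause was not tested. The number of the 10 genes with an unadjusted p under 0.05, 8 in the report, ranged from 4 without PRATA replicate 3 and sham replicate 1 to 10 with voom quality weights, was 6 with the replicate block, 6 to 10 with single samples left out, and was 1 with the covariate, below that range. An adjusted p under 0.05 was reached by 3 genes with DESeq2, 7 with voom quality weights and 0 to 5 with single samples left out (5 without sham replicate 2), and by 0 under the other alternatives. At an unadjusted p under 0.05 and higher after PRATA, 5.98% of all genes passed without PRATA replicate 3 and sham replicate 1. The share was 13.4% without sham replicate 2 and 7.14% with the covariate, and was not worked out for the other alternatives. Voom with quality weights called 1173 genes in all after adjustment. Genes relative to the neuron markers that separated the groups numbered 1 in the report and 1 to 4 with single samples left out.

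Counts at an unadjusted p under 0.05 in the further lists moved as follows. For voom quality weights, the replicate block and library size alone they stand without a share of all genes, which was not worked out. Other subunits (3 in the report) went to 1 with library size alone, the replicate block or the covariate, 5 with voom quality weights, 0 without PRATA replicate 3 and sham replicate 1 together, and 1 to 4 with single samples left out. Binding proteins (7) went to 3 with library size alone or the replicate block, 20 with voom quality weights, 4 without those 2 libraries or with the covariate, and 2 to 16 with single samples left out. Store, pump and buffer genes (3) went to 5 without a filter, 9 with voom quality weights and 1 to 10 with single samples left out. Effectors (5) went to 2 with library size alone, 12 with voom quality weights, 0 with the replicate block, 2 without those 2 libraries, 3 with the covariate and 1 to 11 with single samples left out. The correlation of same-numbered samples was between -0.39 and -0.10, so equal numbers did not deviate together across genes, which are not independent. Depth limited low genes such as Cacnb2, at 0.567 to 2.19 CPM.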
